A study of Homo sapiens with 6 samples.

Results

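The genes described here make cholesterol and fatty acids, or control that synthesis through the sterol regulatory element-binding proteins (SREBPs) and the liver X receptors (LXRs). They were chosen by symbol with earlier results of these data known, as 40 listed genes of the 17862 genes in the deposited table. All 40 were in the table and passed the filter on low counts. RNA was sequenced from SCC-9 cells, a human cell line grown from a squamous carcinoma of the tongue. The shMTHFD2 group held 3 libraries of cells with short hairpin RNA plasmids against MTHFD2, a mitochondrial enzyme of folate metabolism, and the shNC group held 3 libraries labelled as the control group. All 6 libraries came from cells grown in DMEM/F12 with 10% serum and 400 ng/mL hydrocortisone, a steroid that both groups therefore share. The study's design text speaks of knock-out cells and its treatment label of knockdown by hairpins. The sources used here give neither the number of hairpins nor the time after their delivery. Nothing beyond the words biological replicates says how separate the cultures were. A p-value here weighs the difference between groups against a spread estimated from these 6 libraries.

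Cholesterol synthesis starts when acetyl-CoA units are joined and passed through mevalonate to farnesyl diphosphate, continues through squalene to lanosterol, and ends with a series of reductions and demethylations of the sterol ring. Fatty acid synthesis draws on the same acetyl-CoA and needs NADPH, after which desaturases and elongases modify the chain. When sterols are scarce, the escort protein SCAP carries SREBPs from the endoplasmic reticulum to the Golgi, where they are cut to release transcription factors that raise most of these enzymes. When sterols are plentiful, INSIG proteins hold SCAP back, and oxysterols activate LXRs, which raise cholesterol export.

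Levels are given as TPM, a transcript abundance relative to all transcripts and scaled to gene length, for each library in the order of replicates 1, 2 and 3. Differences are log2 fold changes (shMTHFD2 over shNC) and carry a fitted SE, from edgeR's quasi-likelihood test on read counts, with p-values adjusted by Benjamini-Hochberg over all 13710 genes tested. "Rose" and "fell" mean an adjusted p under 0.05. The libraries held 18676999 to 19838989 estimated read counts, of which the 40 genes took 0.275 to 0.297% in shMTHFD2 and 0.386 to 0.395% in shNC. The targeted transcript separated the groups, with MTHFD2 at 38.5, 29.1 and 58.5 TPM in shMTHFD2 libraries and 160.4, 168 and 149.6 TPM in shNC libraries (log2 -1.95, SE 0.21, adjusted p = 0.00924). The first principal component over all genes took 63.0% of the variance and set shMTHFD2 replicate 2 apart at -61.3. On it shMTHFD2 replicates 1 and 3 stood at -20.7 and 3.2, and shNC at 19.2 to 34.0. The second took 17.5% and set shMTHFD2 replicate 3 apart at 33.6, against 11.1 and -15.0 in shMTHFD2 replicates 1 and 2. On the second, shNC stood at -11.1 to -8.5. Between pairs of libraries, the chi-square of counts per degree of freedom was 27.2 to 77.4 in shMTHFD2 and 3.5 to 7.47 in shNC. The shMTHFD2 libraries thus differed more among themselves, while the test uses a spread shared by both groups. All 8 squamous epithelial markers were present, with summed levels of 8503 to 10569 TPM in shMTHFD2 and 9170 to 10138 TPM in shNC. Of 6 fibroblast markers 3 stayed at or below 1 TPM in all 6 libraries. The list summed to 12.7 to 24.2 TPM in shMTHFD2 and 6.05 to 8.71 TPM in shNC, with COL1A1 the highest, and its part in the results was not tested. Endothelial markers summed to at most 0.55 TPM in shMTHFD2 and 0.56 TPM in shNC. Leukocyte markers summed to 11.96 to 16.4 TPM in shMTHFD2 and 15.2 to 24.8 TPM in shNC, with CD14 the highest and 3 of the 4 at or below 1 TPM in all 6 libraries, and their part in the results was not tested.

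Promoter sequences show how these genes differ in their upstream letters. They are the 250 bases before a listed transcription start, from RefSeq on GRCh38.p14, which holds an entry for 36 of the 40 genes and the other 4 are ACAT2, FASN, FDFT1 and SQLE. HMGCS1, DHCR7 and NSDHL are shown because they fell and carry the CCAAT letters bound by NF-Y, a factor that works with SREBPs. SREBF2 is shown because it alone of the 36 carries TCACNCCAC, the form searched for as the core of a sterol regulatory element. Capitals mark CCAAT or its reverse complement and, in SREBF2, TCACNCCAC. The first listed start of each gene was used.
HMGCS1: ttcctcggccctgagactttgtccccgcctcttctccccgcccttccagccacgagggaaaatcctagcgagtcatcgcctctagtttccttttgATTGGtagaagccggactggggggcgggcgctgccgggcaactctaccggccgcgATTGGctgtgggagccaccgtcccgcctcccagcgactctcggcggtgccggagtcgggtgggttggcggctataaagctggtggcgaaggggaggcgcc
DHCR7: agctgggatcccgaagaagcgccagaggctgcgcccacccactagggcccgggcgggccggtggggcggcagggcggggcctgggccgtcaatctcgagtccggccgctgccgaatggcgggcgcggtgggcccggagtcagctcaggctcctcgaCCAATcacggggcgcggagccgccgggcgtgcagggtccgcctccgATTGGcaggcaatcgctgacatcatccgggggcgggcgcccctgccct
NSDHL: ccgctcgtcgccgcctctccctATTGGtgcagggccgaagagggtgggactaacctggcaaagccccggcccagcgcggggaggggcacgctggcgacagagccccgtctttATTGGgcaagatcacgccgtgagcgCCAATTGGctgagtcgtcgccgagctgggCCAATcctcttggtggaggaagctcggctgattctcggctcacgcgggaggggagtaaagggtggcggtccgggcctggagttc
SREBF2: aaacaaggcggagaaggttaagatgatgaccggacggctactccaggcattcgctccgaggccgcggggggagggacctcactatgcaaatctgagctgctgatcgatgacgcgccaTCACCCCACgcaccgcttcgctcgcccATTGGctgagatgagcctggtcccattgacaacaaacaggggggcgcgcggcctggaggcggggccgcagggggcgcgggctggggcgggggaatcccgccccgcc
The windows lie at chr5:43313413-43313662 (minus strand) for HMGCS1, chr11:71448394-71448643 (minus strand) for DHCR7, chrX:152830813-152831062 (plus strand) for NSDHL and chr22:41832855-41833104 (plus strand) for SREBF2. The CCAAT letters began 155 and 100 bases before the start of HMGCS1 and 94 and 48 bases before that of DHCR7, on either strand. NSDHL carried 5 such matches, of which those at 113 and 110 bases overlap. TCACNCCAC, read on both strands, was in 1 of the 36 listed genes (2.78%) and in 135 of 10991 tested genes with an entry (1.23%), counting a gene once if any of its starts matched. CCAAT was in 26 of the 36 (72.2%) and in 41.6% of tested genes. The SP1 letters GGGCGG were in 34 of the 36 (94.4%) and in 73.4% of tested genes, and the E-box CACGTG in 4 of the 36 (11.1%) and in 11% of tested genes. CCAAT was in 6 of the 7 genes that fell and have an entry, with CYP51A1 the exception. Of the same 7 genes GGGCGG was in 6, and TCACNCCAC and CACGTG were in 0. These are letter matches only, other forms of a sterol regulatory element were not searched for, and no binding was measured.

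Across the 40 genes, 9 fell and 0 rose in shMTHFD2 cells. The 9 were the sterol enzymes HMGCS1, FDPS, FDFT1, LSS, CYP51A1, NSDHL and DHCR7, the fatty acid synthase FASN and the desaturase SCD, and their log2 fold changes ran from -1.23 to -0.47. Of the listed genes 22.5% fell, against 2.47% of all genes tested that fell and 2.97% that rose. The list was chosen with earlier results of these data known, so its shares are a description and not a test. The median log2 fold change of the 40 genes was -0.33, and that of all genes tested was 0.01. Before adjustment, 22 of the 40 had p under 0.05 and were lower, and 4 were higher, where 14.1% of all genes tested were lower and 14.6% higher. DESeq2 called 17 of the 40 lower, among them the 9, and 3 higher (INSIG2, MYLIP and TM7SF2). It called 6.82% lower and 8.23% higher of the 13443 genes to which it gave an adjusted p. The shares of the 40 that were higher thus did not exceed those of all genes. On the TPM scale the groups did not overlap for 25 of the 40 genes, 21 lower and 4 higher in shMTHFD2, where 13.2% of all genes tested were lower and 22.5% higher without overlap.

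**Figure D1:**
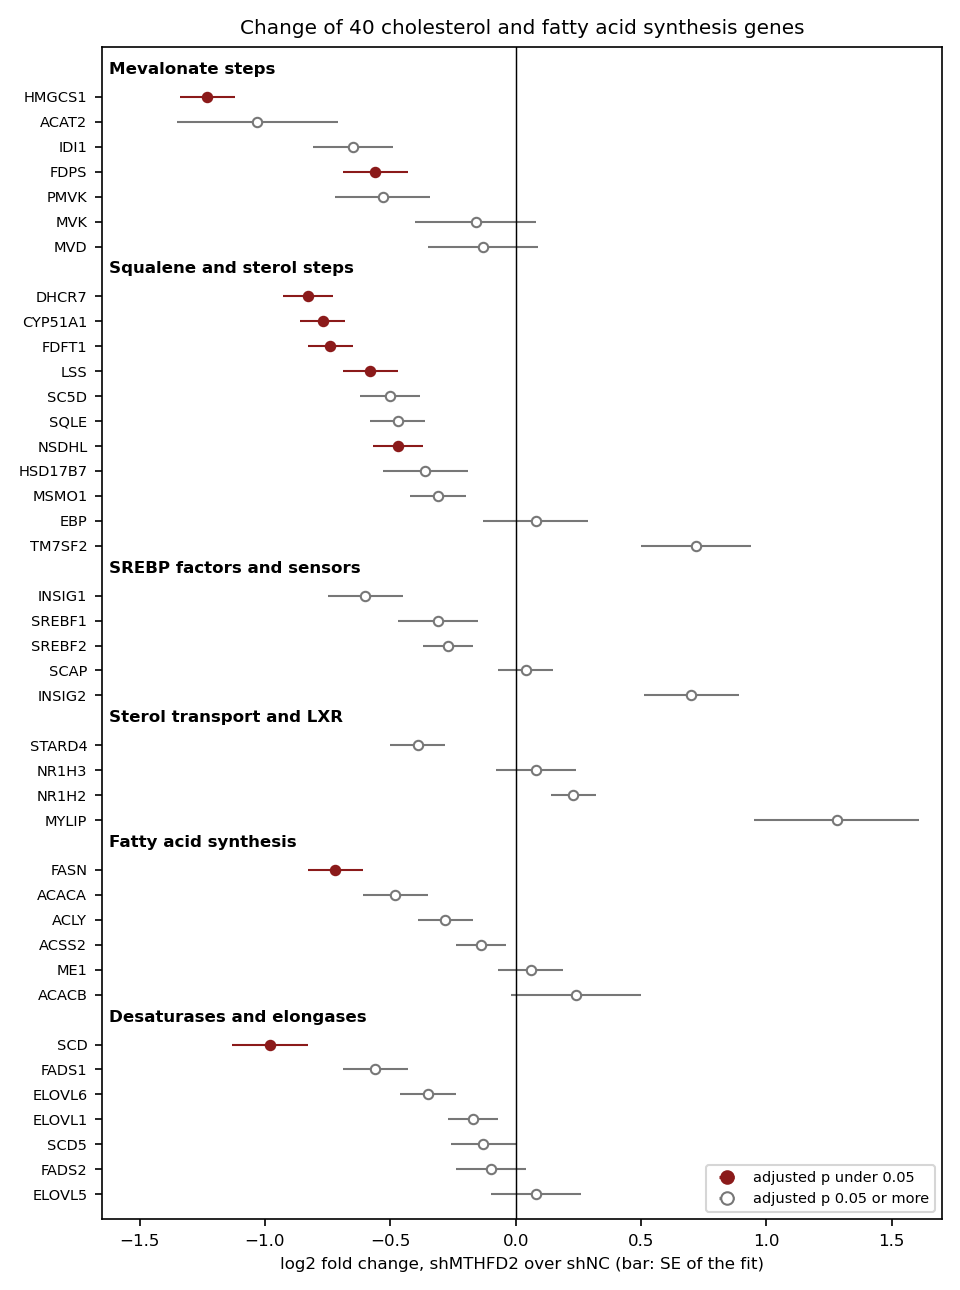
Log2 fold change of shMTHFD2 over shNC for each of the 40 genes, grouped by role, with bars for the SE of the fit. The 9 filled points passed an adjusted p of 0.05 and lie between -1.23 and -0.47, while the open points range from -1.03 (ACAT2) to 1.28 (MYLIP).

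The number of calls depended on which libraries were included. Without shMTHFD2 replicate 2, 18 of the 40 genes fell and 1 rose, where 7.09% of all genes fell and 7.14% rose. Without shMTHFD2 replicate 3, 17 fell and 2 rose, where 12.6% of all genes fell and 13.6% rose. Without shMTHFD2 replicate 1, HMGCS1 and SCD were the 2 of the 40 that fell and 0 rose, where 0.0504% of all genes fell and 0.144% rose. Leaving out shNC replicate 1, 2 or 3 left 0, 0 and 1 fallen genes, the last being HMGCS1, where 0, 0 and 0.0215% of all genes fell. The 9 genes had negative log2 fold changes in all 6 of these fits, which is no sign of stability, since their groups do not overlap.

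The mevalonate steps held the largest fall among the 40 genes. HMGCS1 (Entrez Gene 3157), which condenses acetoacetyl-CoA with acetyl-CoA to HMG-CoA, was at 21.6, 22.3 and 25.5 TPM in shMTHFD2 libraries and 53.9, 56.2 and 46.1 TPM in shNC libraries. Its highest shMTHFD2 value lay well below its lowest shNC value, and it fell by 1.23 on the log2 scale (SE 0.11, adjusted p = 0.00575). FDPS (Entrez Gene 2224), which makes farnesyl diphosphate and was the most abundant of the 40 genes, was at 177.4, 131.4 and 186.3 TPM in shMTHFD2 and 235.4, 237 and 224.6 TPM in shNC. It fell by 0.56 (SE 0.13, adjusted p = 0.0493), with shMTHFD2 replicate 2 the lowest library. FDPS lost its call under each of the 8 other scalings, filters and limma fits (adjusted p = 0.05 to 0.0821). Of the 7 genes of these steps, 2 fell and 0 rose, where 2.47% of all genes tested fell and 2.97% rose. All 7 had negative log2 fold changes with a median of -0.56, where 6716 of the 13710 genes tested were negative.

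The thiolase ACAT2, which supplies acetoacetyl-CoA, spread widely among the knockdown libraries. It was at 44.2, 20.2 and 60.2 TPM in shMTHFD2 and 74.2, 87.3 and 82.0 TPM in shNC, at a log2 change of -1.03 that did not pass (SE 0.32, adjusted p = 0.0977). The groups did not overlap, and shMTHFD2 replicate 2 was the lowest library. Without that replicate ACAT2 fell by 0.69 on the log2 scale (adjusted p = 0.0118), and without shMTHFD2 replicate 3 by 1.34 (adjusted p = 0.0243). Exons of the protein-coding genes SOD2 and TCP1 overlap those of ACAT2 on the opposite strand, and exons of MMAB overlap those of MVK. The sources used here do not give strand handling, so the values of ACAT2 and MVK are uncertain.

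The other 4 mevalonate genes did not pass, and are named here after their values were seen. The kinases MVK and PMVK, the decarboxylase MVD and the isomerase IDI1 act in turn between mevalonate and the isoprenoid building blocks. IDI1 was at 35.3, 51.7 and 39.5 TPM in shMTHFD2 and 65.4, 69.9 and 60.3 TPM in shNC, without overlap (log2 -0.65, SE 0.16, adjusted p = 0.0551). PMVK was at 15.8, 11.99 and 18.5 TPM in shMTHFD2 and 21.3, 18.9 and 23.8 TPM in shNC, also without overlap (log2 -0.53, SE 0.19, adjusted p = 0.12). For MVK and MVD the groups overlapped because shMTHFD2 replicate 2 lay above every shNC library, at 33.0 TPM for MVK and 41.8 TPM for MVD, while shMTHFD2 replicates 1 and 3 lay below every shNC library. Their log2 fold changes were -0.16 (SE 0.24, adjusted p = 0.677) for MVK and -0.13 (SE 0.22, adjusted p = 0.714) for MVD. Without shMTHFD2 replicate 2 both fell, MVK by 0.49 on the log2 scale (adjusted p = 0.0252) and MVD by 0.40 (adjusted p = 0.0488). Summed over the 7 genes, the level was 342.1, 312.3 and 371.7 TPM in shMTHFD2 and 513.8, 525.7 and 492.2 TPM in shNC. In a bulk culture, fewer cells that make a transcript and less transcript per cell cannot be told apart.

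Sterol synthesis from farnesyl diphosphate held most of the fallen genes. Of its 11 genes 5 fell and 0 rose, where 2.47% of all genes tested fell and 2.97% rose. FDFT1 (Entrez Gene 2222), squalene synthase and the first enzyme committed to sterols, was at 104.5, 91.1 and 96.1 TPM in shMTHFD2 and 158.1, 160.3 and 151.6 TPM in shNC. It fell by 0.74 on the log2 scale (SE 0.09, adjusted p = 0.0139), with a wide gap between the groups. LSS (Entrez Gene 4047), which closes the sterol rings to give lanosterol, was at 20.7, 16.0 and 20.0 TPM in shMTHFD2 and 26.8, 27.3 and 25.8 TPM in shNC (log2 -0.58, SE 0.11, adjusted p = 0.0358). The shNC libraries of LSS lay close together, and shMTHFD2 replicate 2 was again the lowest. The call of LSS was lost with upper-quartile scaling and both TPM fits (adjusted p = 0.0525 to 0.0696).

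Between them acts the epoxidase SQLE, a rate-limiting step of sterol synthesis, which just missed the threshold. SQLE was at 101, 117.1 and 106.1 TPM in shMTHFD2 and 143.8, 157.3 and 131.1 TPM in shNC (log2 -0.47, SE 0.11, adjusted p = 0.052). The groups did not overlap. FDPS at 0.0493 and SQLE at 0.052 stand on either side of the same threshold with similar changes, and the difference between these genes was not tested.

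The enzymes that turn lanosterol into cholesterol followed. CYP51A1 (Entrez Gene 1595), the lanosterol demethylase, was at 38.9, 39.6 and 44.4 TPM in shMTHFD2 and 70.0, 65.8 and 64.8 TPM in shNC. It fell by 0.77 on the log2 scale (SE 0.09, adjusted p = 0.0104). NSDHL (Entrez Gene 50814), a dehydrogenase that helps to remove the methyl groups of the ring, was at 38.2, 43.4 and 43.0 TPM in shMTHFD2 and 57.4, 55.5 and 51.9 TPM in shNC (log2 -0.47, SE 0.10, adjusted p = 0.0435). The groups of both genes stood apart, but the call of NSDHL was lost with upper-quartile or total-count scaling, a filter at 5 CPM and both TPM fits (adjusted p = 0.0539 to 0.0684). DHCR7 (Entrez Gene 1717), the reductase of a last step to cholesterol, was at 37.9, 35.9 and 33.1 TPM in shMTHFD2 and 63.7, 63.8 and 56.3 TPM in shNC. DHCR7 had the most negative change of the sterol steps, at -0.83 on the log2 scale (SE 0.10, adjusted p = 0.014).

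**Figure D2:**
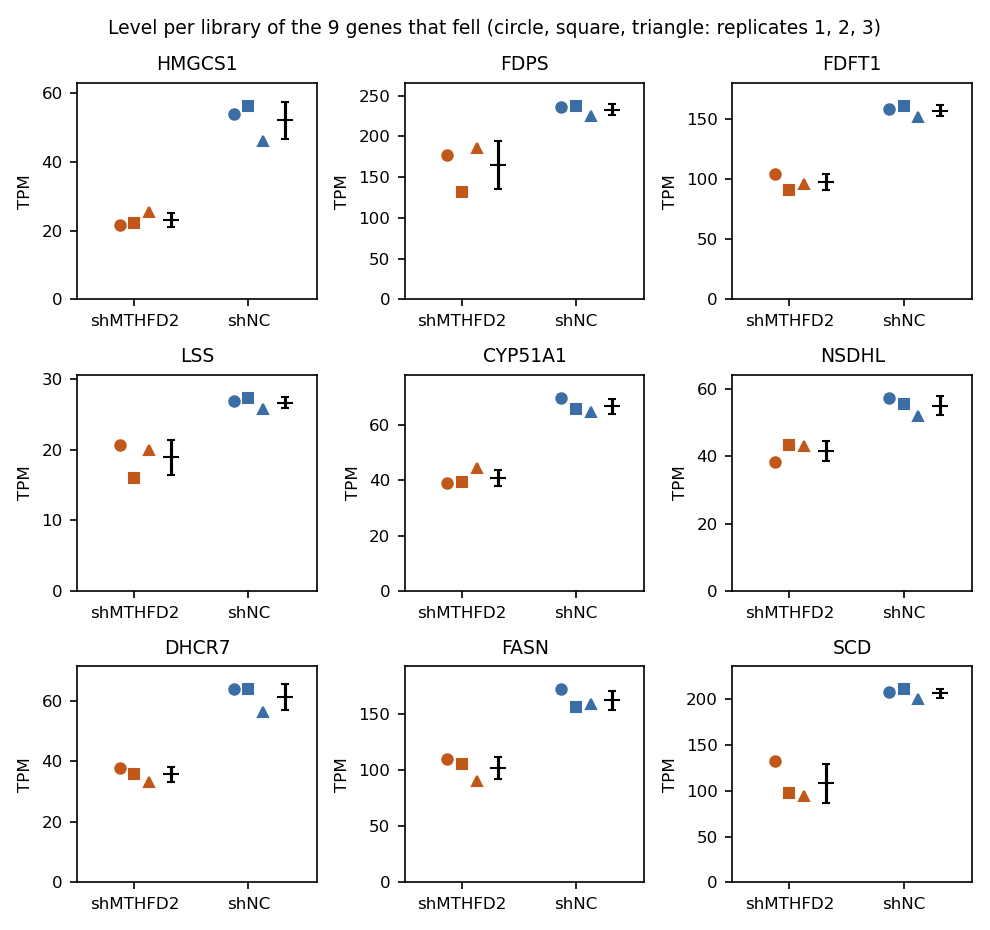
Level in TPM of the 9 genes that fell, with shMTHFD2 left of shNC, a marker for each library (circle, square and triangle for replicates 1, 2 and 3) and bars for the mean and SD of 3 libraries. In each panel every shMTHFD2 library lies below every shNC library, with HMGCS1 at 23.1 ± 2.06 TPM in shMTHFD2 and 52.1 ± 5.30 TPM in shNC.

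The remaining 5 sterol genes were mixed, and are named after their values were seen. SC5D, a desaturase of the sterol ring, was at 17.1, 13.7 and 19.6 TPM in shMTHFD2 and 23.3, 23.5 and 21.6 TPM in shNC without overlap (log2 -0.50, SE 0.12, adjusted p = 0.0588). MSMO1, a methyl sterol oxidase, stood at log2 -0.31 (SE 0.11, adjusted p = 0.132), and HSD17B7, a keto-reductase of the same demethylation, at log2 -0.36 (SE 0.17, adjusted p = 0.2). HSD17B7 has 2 named pseudogenes, FDPS has 8 and CYP51A1 has 3 in GENCODE 29, which leaves the split of their reads uncertain. The isomerase EBP was at 15.3, 21.3 and 13.4 TPM in shMTHFD2 and 16.1, 14.8 and 15.0 TPM in shNC, with overlapping groups (log2 0.08, SE 0.21, adjusted p = 0.829). TM7SF2, a sterol reductase, went the other way, at 6.94, 6.85 and 7.37 TPM in shMTHFD2 and 4.86, 2.98 and 4.52 TPM in shNC. Its groups did not overlap, and its log2 fold change was 0.72 (SE 0.22, adjusted p = 0.0967). DESeq2 called TM7SF2 higher (adjusted p = 0.0437).

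Mevalonate and sterol steps together thus had 7 of 18 genes lower, 38.9%, where 2.47% of all genes tested fell. Of the 18 log2 fold changes 16 were negative, with a median of -0.51, where 6716 of all 13710 were negative. The summed level of these 18 genes was 805.8, 782.8 and 825.5 TPM in shMTHFD2 and 1177, 1187 and 1111 TPM in shNC. The groups of sums did not overlap. The sterol steps alone had a median log2 fold change of -0.47.

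**Figure D3:**
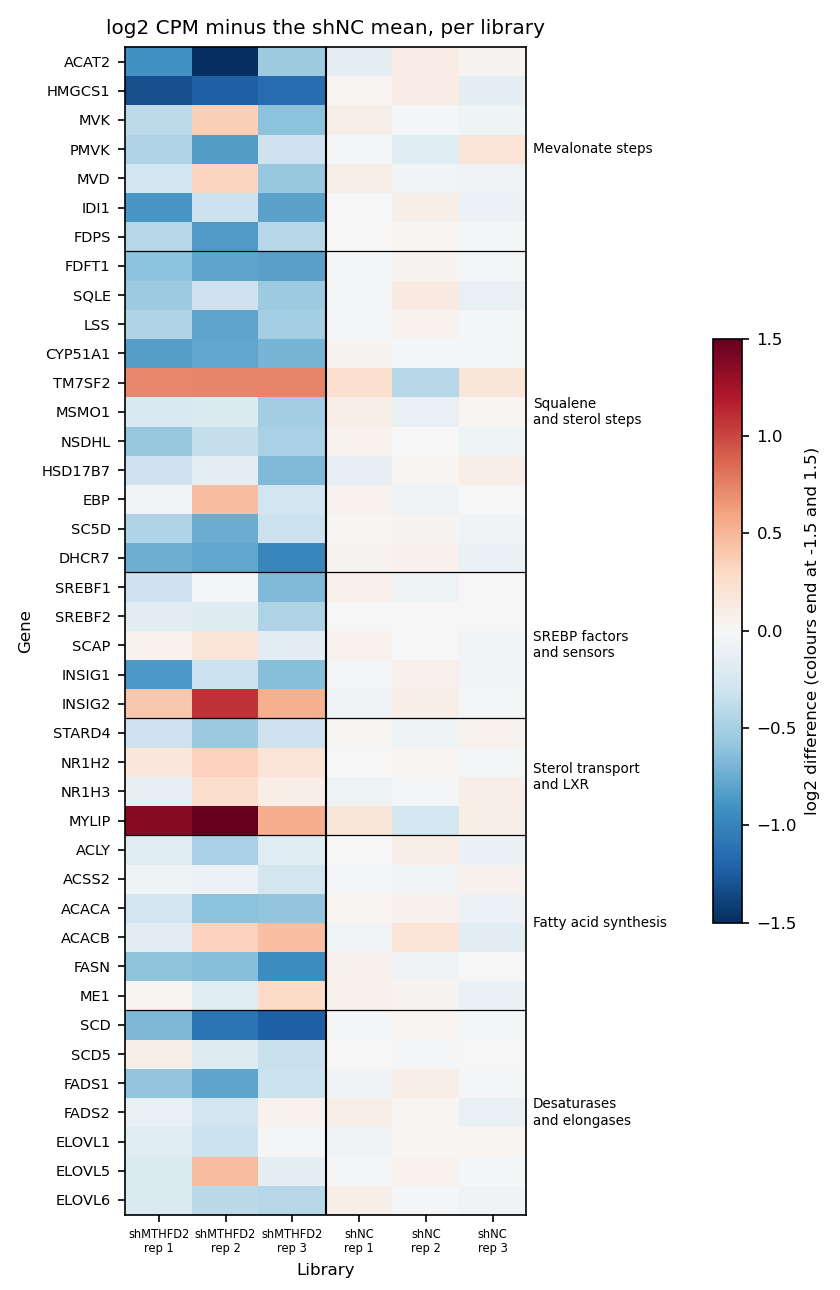
Log2 CPM (read counts relative to library size) of each of the 40 genes in each of the 6 libraries, minus the mean of the 3 shNC libraries, with colours that end at 1.5 in either direction. Most rows are below the shNC mean in all 3 shMTHFD2 libraries, while MVK, MVD, EBP and ELOVL5 are higher in shMTHFD2 replicate 2 than in shMTHFD2 replicates 1 and 3.

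None of the 5 genes that sense sterols and activate synthesis passed edgeR's test. With edgeR, 2 had an unadjusted p under 0.05 and were lower, and 1 was higher, where 14.1% of all genes were lower and 14.6% higher. SREBF2, which encodes the SREBP that mainly drives cholesterol genes, was at 70.2, 67.5 and 59.1 TPM in shMTHFD2 and 76.9, 75.2 and 74.2 TPM in shNC. The groups did not overlap (log2 -0.27, SE 0.10, adjusted p = 0.146). SCAP, the escort of SREBPs, overlapped, at 27.8, 30.8 and 25.1 TPM in shMTHFD2 and 27.2, 25.7 and 25.1 TPM in shNC (log2 0.04, SE 0.11, adjusted p = 0.845). SREBF1, whose products drive fatty acid genes, overlapped as well, at 23.0, 28.4 and 18.9 TPM in shMTHFD2 and 29.4, 26.6 and 27 TPM in shNC (log2 -0.31, SE 0.16, adjusted p = 0.242).

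Both INSIG genes separated the groups, in opposite directions, without passing edgeR's test. Without overlap, 13.2% of all genes tested were lower and 22.5% higher. DESeq2 called INSIG1 lower (adjusted p = 0.0116) and INSIG2 higher (adjusted p = 0.00868). INSIG1, itself an SREBP target, was at 9.79, 14.1 and 11.9 TPM in shMTHFD2 and 17.3, 18.4 and 16.6 TPM in shNC (log2 -0.60, SE 0.15, adjusted p = 0.0624). INSIG2 was at 13.7, 21.5 and 15.7 TPM in shMTHFD2 and 9.83, 10.6 and 9.79 TPM in shNC (log2 0.70, SE 0.19, adjusted p = 0.0681). Every shMTHFD2 library was below every shNC library for INSIG1 and above it for INSIG2. INSIG2 passed without shMTHFD2 replicate 2 (log2 0.49, adjusted p = 0.0176) and without shMTHFD2 replicate 3 (log2 0.80, adjusted p = 0.0282). INSIG1 passed in the same omissions, of replicate 2 (log2 -0.73, adjusted p = 0.00571) and of replicate 3 (log2 -0.56, adjusted p = 0.047). The values of SREBF1 and INSIG1 are given after they were seen.

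Of the 4 genes of sterol transport and LXR control, 0 passed edgeR's test. Before adjustment 1 was lower and 2 higher at p under 0.05, against 14.1% of all genes lower and 14.6% higher. STARD4, a carrier of cholesterol between membranes, was at 16.3, 13.2 and 17.5 TPM in shMTHFD2 and 20.2, 18.2 and 19.9 TPM in shNC (log2 -0.39, SE 0.11, adjusted p = 0.0765). NR1H2, which encodes LXR beta, was at 53.0, 59.7 and 57.5 TPM in shMTHFD2 and 46.7, 47.1 and 45.0 TPM in shNC (log2 0.23, SE 0.09, adjusted p = 0.149). MYLIP, an LXR-induced ubiquitin ligase, was at 3.41, 4.29 and 2.01 TPM in shMTHFD2 and 1.54, 1.14 and 1.32 TPM in shNC. The groups of these 3 genes did not overlap, with STARD4 lower and the others higher in shMTHFD2. Of all genes tested, 13.2% were lower and 22.5% higher without overlap. MYLIP had the most positive change of the 40 genes at 1.28 on the log2 scale (SE 0.33, adjusted p = 0.0623). It passed without shMTHFD2 replicate 3 (log2 1.56, adjusted p = 0.00965), as did STARD4 (log2 -0.41, adjusted p = 0.0437). DESeq2 called MYLIP higher (adjusted p = 0.00699) and STARD4 lower (adjusted p = 0.0374). NR1H3, which encodes LXR alpha, overlapped (log2 0.08, SE 0.16, adjusted p = 0.749). Exons of the protein-coding gene ACP2 overlap those of NR1H3 on the opposite strand, so the value of NR1H3 is uncertain.

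Among the genes of fatty acid synthesis, the transcript of the central enzyme fell. FASN (Entrez Gene 2194), the synthase that builds palmitate, was at 109.6, 105.5 and 90.7 TPM in shMTHFD2 and 172.1, 156.4 and 158.6 TPM in shNC. It fell by 0.72 on the log2 scale (SE 0.11, adjusted p = 0.0228), and the groups stood well apart. ACLY, which makes cytosolic acetyl-CoA from citrate, overlapped, at 113.9, 90.5 and 118.7 TPM in shMTHFD2 and 127.4, 134.2 and 115.7 TPM in shNC (log2 -0.28, SE 0.11, adjusted p = 0.161). Of these 6 genes 1 fell and 0 rose, where 2.47% of all genes tested fell and 2.97% rose.

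The other 4 did not pass and were chosen for naming after their values were seen. ACACA, the acetyl-CoA carboxylase of the cytosol, was at 6.84, 5.23 and 5.73 TPM in shMTHFD2 and 8.38, 8.43 and 7.48 TPM in shNC without overlap (log2 -0.48, SE 0.13, adjusted p = 0.0643). Its mitochondrial relative ACACB was the least abundant of the 40 genes, at 0.46 to 0.73 TPM in shMTHFD2 and 0.43 to 0.56 TPM in shNC. The acetyl-CoA synthetase ACSS2 stood at log2 -0.14 (SE 0.10, adjusted p = 0.376), and ME1, a malic enzyme that yields NADPH, at log2 0.06 (SE 0.13, adjusted p = 0.803). The groups of ACACB, ACSS2 and ME1 overlapped.

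Among desaturases and elongases, 1 of 7 genes fell and 0 rose, where 2.47% of all genes tested fell and 2.97% rose. SCD (Entrez Gene 6319), which makes oleate and palmitoleate, was at 132.7, 97.1 and 94.2 TPM in shMTHFD2 and 207.1, 210.6 and 200.4 TPM in shNC. It fell by 0.98 on the log2 scale (SE 0.15, adjusted p = 0.0215), the most negative change of the fatty acid genes, and SCD has 1 named pseudogene. Its relative SCD5 overlapped, at 20.1 to 26.1 TPM in shMTHFD2 and 23.3 to 24.1 TPM in shNC (log2 -0.13, SE 0.13, adjusted p = 0.519).

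FADS1, a desaturase of polyunsaturated fatty acids, was at 46.7, 40.1 and 58.9 TPM in shMTHFD2 and 66.7, 72.4 and 66.0 TPM in shNC (log2 -0.56, SE 0.13, adjusted p = 0.0537). Its neighbour FADS2 overlapped (log2 -0.10, SE 0.14, adjusted p = 0.627), and exons of the pair overlap on opposite strands, so both values are uncertain. ELOVL6, which elongates palmitate, was at 9.19, 7.89 and 8.29 TPM in shMTHFD2 and 11.1, 10.1 and 9.82 TPM in shNC without overlap (log2 -0.35, SE 0.11, adjusted p = 0.0958). SCD5, FADS1, FADS2 and ELOVL6 are named after their values were seen. The abundant elongases overlapped, with ELOVL5 at 163.8, 264.8 and 178.8 TPM in shMTHFD2 and 178.7, 179.7 and 172.9 TPM in shNC (log2 0.08, SE 0.18, adjusted p = 0.781). ELOVL1 was at 170.3, 151.4 and 199.3 TPM in shMTHFD2 and 183.5, 191.3 and 188.6 TPM in shNC (log2 -0.17, SE 0.10, adjusted p = 0.29).

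Fatty acid synthesis, desaturases and elongases together had 2 of 13 genes lower, 15.4%, where 2.47% of all genes tested fell. The 13 genes had a median log2 fold change of -0.17. Their summed level was 871.8, 868.2 and 877.5 TPM in shMTHFD2 and 1075, 1079 and 1032 TPM in shNC. The difference in median from the cholesterol steps, at -0.51, was not tested.

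**Figure D4:**
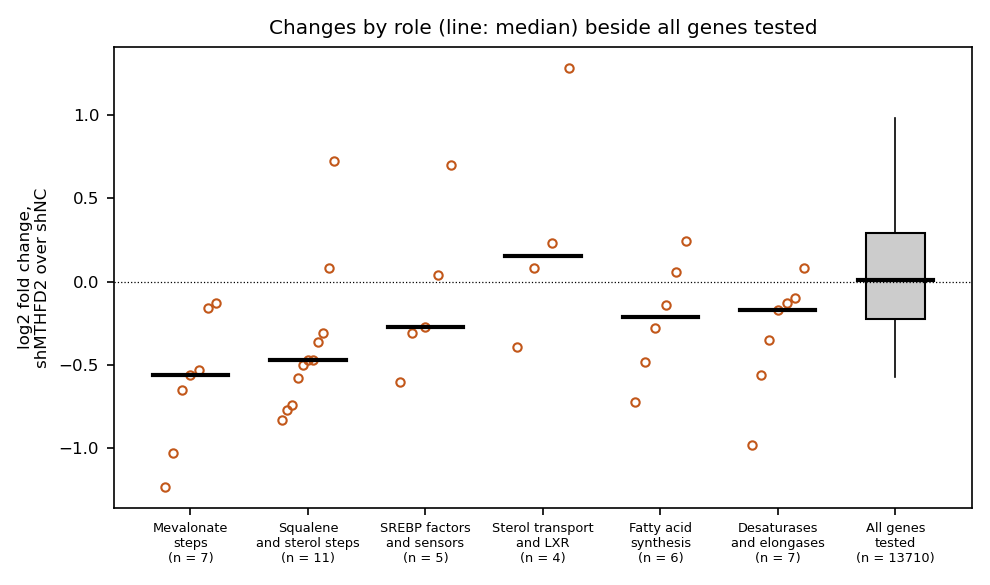
Log2 fold change of shMTHFD2 over shNC of each gene by role, with a line at each role's median, beside a box of all 13710 genes tested (25th to 75th percentile, with whiskers from the 5th to the 95th). The medians are -0.56 for mevalonate, -0.47 for sterol, -0.27 for SREBP control, 0.16 for transport and LXR, -0.21 for fatty acid synthesis and -0.17 for desaturases and elongases.

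Neighbouring lipid pathways were described from 5 further lists of 59 genes, of which 57 were tested. Of these, 1 was lower (1.75%) and 4 were higher, and the median log2 fold change was 0.07. Over all genes tested, 2.47% fell and 2.97% rose. These lists too were chosen with earlier results of these data known. SOAT1, which esterifies cholesterol for storage, was at 16.8, 12.2 and 23.7 TPM in shMTHFD2 and 39.6, 43.2 and 34.0 TPM in shNC, and fell by 0.99 on the log2 scale (SE 0.14, adjusted p = 0.0195). ABCA1, an LXR-induced exporter of cholesterol, was at 1.95, 1.97 and 1.76 TPM in shMTHFD2 and 0.55, 0.53 and 0.55 TPM in shNC, and rose by 1.75 (SE 0.16, adjusted p = 0.00691). These were the 2 of 9 tested genes of cholesterol storage, trafficking and efflux that passed.

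PLIN2, a coat protein of lipid droplets, was at 13.1, 12.1 and 13.7 TPM in shMTHFD2 and 3.68, 4.58 and 3.23 TPM in shNC, and rose by 1.71 on the log2 scale (SE 0.17, adjusted p = 0.00776). It was the 1 of 10 triglyceride and droplet genes that passed. ACSL5, which activates fatty acids, rose by 1.42 (SE 0.31, adjusted p = 0.0466) with 8.12, 6.13 and 15.6 TPM in shMTHFD2 and 3.58, 3.33 and 3.73 TPM in shNC. The elongase ELOVL3 rose by 1.14 (SE 0.26, adjusted p = 0.0496) with 5, 5.79 and 3.85 TPM in shMTHFD2 and 2.14, 1.65 and 2.38 TPM in shNC. These were the 2 of 19 genes of fatty acid activation and further elongation that passed, and with limma-voom both lost their call (adjusted p = 0.0686 for ACSL5 and 0.0581 for ELOVL3). The groups of all 5 genes did not overlap, but these 5 were named because they passed. Of all genes tested, 13.2% were lower and 22.5% higher without overlap. No gene passed among 9 of SREBP cleavage and sensor turnover, where before adjustment 0 were lower and 1 higher at p under 0.05, or among 10 of the isoprenoid branch, where 2 were lower and 0 higher. These counts stand beside 14.1% of all genes lower and 14.6% higher before adjustment.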

How the data were processed

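Whole-transcriptome RNA was sequenced from 6 SCC-9 libraries. For each of 17862 genes and each library the authors made and deposited an estimated count of reads and a TPM value, per the file headers, and 12 value columns of the table were used and 20 were not. The submitters' processing notes name the build mm10 although the cells are human, and the sources used here give no aligner, counter or use of strand. Estimated counts were rounded to whole numbers, filtered with filterByExpr, scaled by TMM and tested with edgeR 4.0.16's quasi-likelihood F test in R 4.3.3, with Benjamini-Hochberg adjustment over 13710 genes at a threshold of 0.05, and the SE is the log2 fold change divided by the root of F. DESeq2 1.42.0 and limma 3.58.1 were alternatives. Only the main edgeR fit was tested on simulated data. A count of 0 allows up to 3 counts, and this floor covers counting error only.

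The 40 genes and the further lists were chosen with earlier results of these data known. Genes named by rule were those past the threshold, the 2 most abundant and the largest change of each role, and those past the threshold in the further lists. Overlap between groups was judged on TPM. Low-value filtering passed all 40 genes. Other settings left out each library, blocked on replicate number, or changed the scaling, filter, tool or threshold.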

Additional observations from a re-analysis of the deposited data

How the results depend on the processing

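The number of calls varied with the libraries included, a replicate block, the tool and the threshold. Over all genes 745 passed, with 1 to 3651 when each library was left out, 2023 with DESeq2, 33 at an adjusted p of 0.01 and 2033 at 0.1. Of the 40 genes 9 fell, with 0 to 18 when each library was left out and 17 with DESeq2. At 0.01 the count was 1, at 0.1 it was 18, and other scalings, filters and limma fits gave 6 to 9. Over all genes 338 were lower, with 0 to 1756 when each library was left out and 917 with DESeq2. Lower calls over all genes were 13 at 0.01, 998 at 0.1, and 182 to 328 with other scalings, filters and limma fits. None of the 40 rose with edgeR (4 at an unadjusted p under 0.05), against 0 to 2 when each library was left out, and 3 each with DESeq2 and at 0.1. Higher calls over all genes were 407, with 1 to 1895 when each library was left out, 1106 with DESeq2 and 1035 at 0.1.

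Replicate numbers did not pair the libraries (same-number correlations 0.00, -0.24 and -0.19), and with replicate number as a block 16 genes passed and 0 of the 40 fell. Without shMTHFD2 replicate 3 the log2 fold change was 0.04 for MVK, 0.06 for MVD and -0.06 for ME1, and without shMTHFD2 replicate 2 it was -0.14 for EBP, -0.03 for SCAP and -0.15 for ELOVL5. In the other omissions these stood at up to -0.49 for MVK, -0.40 for MVD, 0.18 for ME1, 0.25 for EBP, 0.14 for SCAP and 0.20 for ELOVL5. The cause was not tested. Against 407 higher and 338 lower calls, upper-quartile scaling gave 455 higher and 210 lower, total counts 449 higher and 230 lower, and log2 TPM fits 386 higher and 183 lower or 392 higher and 182 lower.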
